A study of Homo sapiens with 48 samples.

Results

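The genes described here encode the factors that carry out translation beside eIF2. They were taken as every gene whose symbol begins with EIF1, EIF3, EIF4, EIF5, EIF6, EEF1, EEF2, GSPT, ETF1 or PABPC, which gave 59 of the 12256 genes measured. Of these, 56 of 11145 genes were listed in ribosome-protected fragments (RPFs), 57 of 11947 in total cytoplasmic RNA, and 54 in both. EIF1AY and GSPT2 were listed in RPFs only, and EIF4E3, EIF5AL1 and PABPC3 in total RNA only. By role, the RPF table held 5 genes of the eIF1 group, 13 eIF3 subunits, 9 eIF4 cap-binding and helicase factors, 3 proteins that bind and restrain eIF4E (EIF4EBP1, EIF4EBP2 and EIF4ENIF1), EIF4A3 of the exon junction complex, 5 genes of the eIF5 and eIF6 group, 6 elongation factors, 8 genes grouped with them (7 kinase and methyltransferase genes of elongation factors, and EEF1E1), 3 termination factors and 3 cytoplasmic poly(A)-binding proteins.

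The samples were SW480 cells, an established human colorectal adenocarcinoma line. Pools of cells were transduced and selected to carry a doxycycline-inducible shRNA, either a non-targeting control (shCTRL) or one against EIF2B1 (shEIF2B1, eIF2Bα) or EIF2B4 (shEIF2B4, eIF2Bδ), both subunits of the exchange factor of eIF2. Each of the 3 lines was grown with DMSO (-DOX) or with 1 µg/ml doxycycline (+DOX) for 5 days, in 4 replicates performed in separate weeks, giving 6 groups, 24 lysates and 48 libraries. Every +DOX group, shCTRL included, therefore carried doxycycline and an expressed shRNA, and every lysate was prepared in cycloheximide, which halts elongating ribosomes. The labels name 1 shRNA per target, and all groups come from 1 cell line.

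In translation initiation, eIF3 and the eIF1 factors prepare the small ribosomal subunit, while eIF4E binds the mRNA cap, eIF4G serves as the scaffold, and the eIF4A helicase with eIF4B and eIF4H unwinds the leader. eIF5 triggers GTP hydrolysis on eIF2 once a start codon is found, and eIF5B joins the large subunit, which eIF6 otherwise keeps apart. During elongation eEF1A delivers aminoacyl-tRNA, the eEF1B subunits recharge it, eEF2 moves the ribosome along, and eIF5A assists at slow peptide bonds, before eRF1 (ETF1) and eRF3 (GSPT1, GSPT2) release the finished chain. Several of these mRNAs, most elongation factors among them, are known to start with a terminal oligopyrimidine (TOP) tract, a feature shared with ribosomal protein mRNAs and linked to control by mTOR.

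The values are regularized log2 values made by the authors, without read counts, so the depth of each library is unknown and no counting error can be given. A response is the log2 change from -DOX to +DOX in a knockdown line minus that in shCTRL, fitted with limma with the replicate as a block, and a gene was called where its p, adjusted over all genes after Benjamini and Hochberg, was under 0.1. In total RNA, EIF2B1 fell by 0.67 ± 0.15 (SE, log2) after shEIF2B1 and EIF2B4 fell by 0.49 ± 0.14 after shEIF2B4, so both targets moved with their labels in that assay. In RPFs EIF2B1 was called lower after shEIF2B1, while EIF2B4 was not called after shEIF2B4. ATF4 and DDIT3, which are induced in the integrated stress response, had RPF responses of 1.01 and 1.49 to shEIF2B1 and of 0.76 and 1.73 to shEIF2B4. Of 8 epithelial markers 6 were listed (VIL1 and CDX1 were not), and 0 of 5 markers of leukocytes, endothelium and fibroblasts. In RPFs EPCAM, KRT8, KRT18 and KRT19 stood at percentile 95.7 of genes or above, CDX2 at 52.8 and CDH1 at 17.6. In RPFs, replicate 1 of shEIF2B4 -DOX stood apart for these factors, with a median of 8.85 over the 56 genes against 9.30 to 9.60 in the other replicates of that group. Replicate 1 was also lowest in shEIF2B4 +DOX, at 8.88 against 9.02 to 9.43, and in shCTRL -DOX, at 9.09 against 9.41 to 9.61. The same held in shEIF2B1 +DOX, at 9.06 against 9.10 to 9.52. In shCTRL +DOX replicate 1 was at 9.435, with replicates 2 to 4 at 9.14, 9.15 and 9.54. The results of shEIF2B4 in RPFs and TE are followed by their values without replicate 1. For the responses, this leaves out the shCTRL libraries of replicate 1 as well. In bulk libraries, fewer cells of a type and less RNA per cell cannot be told apart.

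The isoforms of eEF1A show how far these genes differ in their use of synonymous codons, a property set beside the responses further on. EEF1A1 and EEF1A2 encode closely related proteins, and their coding sequences (1386 and 1389 nt) shared 78% of bases over 462 aligned codons. Of 267 codons that differed, 227 differed in the third base alone, and in 183 of these EEF1A2 had G or C where EEF1A1 had A or T, against 10 the other way. The share of codons ending in G or C (GC3) was 48.3% in EEF1A1 and 89.2% in EEF1A2. The 20-codon windows printed here are of this pair and of factors with a called response, EIF5B, EIF3M and GSPT1 among those with a GC3 under 40% and PABPC1L with a GC3 of 75.1%. They come from GRCh38 on the coding strand, with the third base of a codon in capitals where it is G or C. EEF1A1 (chr6:73519967-73520026, minus strand) and EEF1A2 (chr20:63497704-63497763, minus strand) are shown over their first 20 codons, EIF5B (chr2:99360237-99360296, plus strand) over codons 13 to 32, EIF3M (chr11:32589547-32589606, plus strand) over codons 15 to 34, GSPT1 (chr16:11896724-11896783, minus strand) over codons 9 to 28 and PABPC1L (chr20:44910144-44910203, plus strand) over its first 20 codons, each within coding exons.
EEF1A1: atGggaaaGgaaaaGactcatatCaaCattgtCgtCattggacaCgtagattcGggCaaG
EEF1A2: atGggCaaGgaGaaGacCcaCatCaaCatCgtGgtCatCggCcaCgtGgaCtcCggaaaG
EIF5B: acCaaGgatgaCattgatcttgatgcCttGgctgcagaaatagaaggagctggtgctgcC
EIF3M: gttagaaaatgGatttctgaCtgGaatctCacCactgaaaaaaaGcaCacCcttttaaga
GSPT1: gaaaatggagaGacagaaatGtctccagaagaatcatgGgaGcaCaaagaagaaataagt
PABPC1L: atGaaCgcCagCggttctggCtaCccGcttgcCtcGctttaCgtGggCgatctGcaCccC

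The second set of sequences covers transcription start sites, because the factors lowered by DOX in shCTRL, described further on, were all on a list of TOP mRNAs. A start was called tract-bearing where it began with C and ran on as at least 5 pyrimidines. The set of RefSeq starts used (GRCh38.p14) was incomplete and held 44 of the 59 genes. Of the TOP-listed genes it lacked EEF1D, EIF3E, EIF3H and PABPC1, so their starts were not examined. By this rule 5 of the 6 TOP-listed genes with a start held a tract, namely EEF1A1, EEF1B2, EEF2, EIF3F and EIF4B, against 4 of 38 of the other factors, 66.2% of 65 cytosolic ribosomal protein genes and 5.14% of all 27305 genes. RefSeq lists a second start of EEF1B2 without a tract, and the gene was counted by the start that has one. The TOP-listed gene without one was EEF1G, and the 4 others with one were EIF3D, EIF3K, EIF3M and EIF4A2. Each window runs from 10 bases before the start to the first 20 transcribed bases, with the tract in capitals: EEF1A1 at chr6:73521013-73521042 (minus strand), EEF2 at chr19:3985444-3985473 (minus strand), EEF1B2 at chr2:206159885-206159914 (plus strand), EIF3F at chr11:7987327-7987356 (plus strand), EIF4A2 at chr3:186783567-186783596 (plus strand) and, as a start without a tract, EEF1G at chr11:62573872-62573901 (minus strand).
EEF1A1: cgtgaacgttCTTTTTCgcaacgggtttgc
EEF2: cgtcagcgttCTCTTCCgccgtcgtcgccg
EEF1B2: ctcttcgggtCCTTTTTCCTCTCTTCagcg
EIF3F: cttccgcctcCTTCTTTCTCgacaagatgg
EIF4A2: gcgccgctgtCTTTTCagtcgggcgctgag
EEF1G: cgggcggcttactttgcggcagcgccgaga

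Corrected for coding length, the factors spanned most of the range of RPF levels in uninduced shCTRL cells. On the scale of log2 RPF value per kb of coding sequence, EIF5A stood highest among the 51 factors with a known length, at 14.83 ± 0.10 (SD, n = 4), followed by EEF1B2 at 13.43 ± 0.09 and the helicase EIF4A1 at 13.30 ± 0.15. EEF1B2 and EIF4A1 lay within their spread of each other, while EIF5A lay above both by more than its spread. EEF1G reached 12.21 ± 0.07 and EEF2 11.50 ± 0.13, whereas EEF1A2, the eEF1A isoform known from neurons and muscle, stood at 8.88 ± 0.32. At the low end were EIF5B at 4.56 ± 0.55, the scaffold EIF4G3 at 4.30 ± 0.33, PABPC1L at 3.78 ± 0.24 and GSPT2 at 2.78 ± 0.20, the last at percentile 3.42 of 10803 genes. The EIF4G3 and PABPC1L levels differed by less than the sum of their SDs. EEF1A1 had no coding length for its deposited transcript and was left out of this order.

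After depletion of eIF2Bα, the factors with a lower RPF response were initiation and termination factors, PABPC1, EEF1E1 and EIF5A2, an isoform of the elongation-assisting eIF5A. None was among the 6 eEF1 and eEF2 subunits grouped here as elongation factors. Of these 6, 5 were called lower with DOX within shEIF2B1 cells and 4 within shCTRL, whose change the response subtracts. In all, 23 of 56 factors (41.1%) had a called response, 5 higher and 18 lower, where 27.3% of all 11145 genes did, 12% higher and 15.3% lower. The median RPF response of the factors was -0.19 on the log2 scale, against -0.01 over all genes. By group, the median was -0.50 over 9 eIF4 factors with 5 lower, -0.27 over 13 eIF3 subunits with 5 lower, -0.20 over the 5 genes of the eIF5 and eIF6 group with 2 lower and 1 higher, -0.68 over 3 termination factors with 2 lower, and 0.08 over 6 elongation factors with 1 higher and 0 lower. Without replicate 4 the count was 14 of 56, beside 13.7% of all genes, and all 23 kept their direction. In a fit without the replicate block no factor was called in RPFs, where 50 of all genes were.

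**Figure D1:**
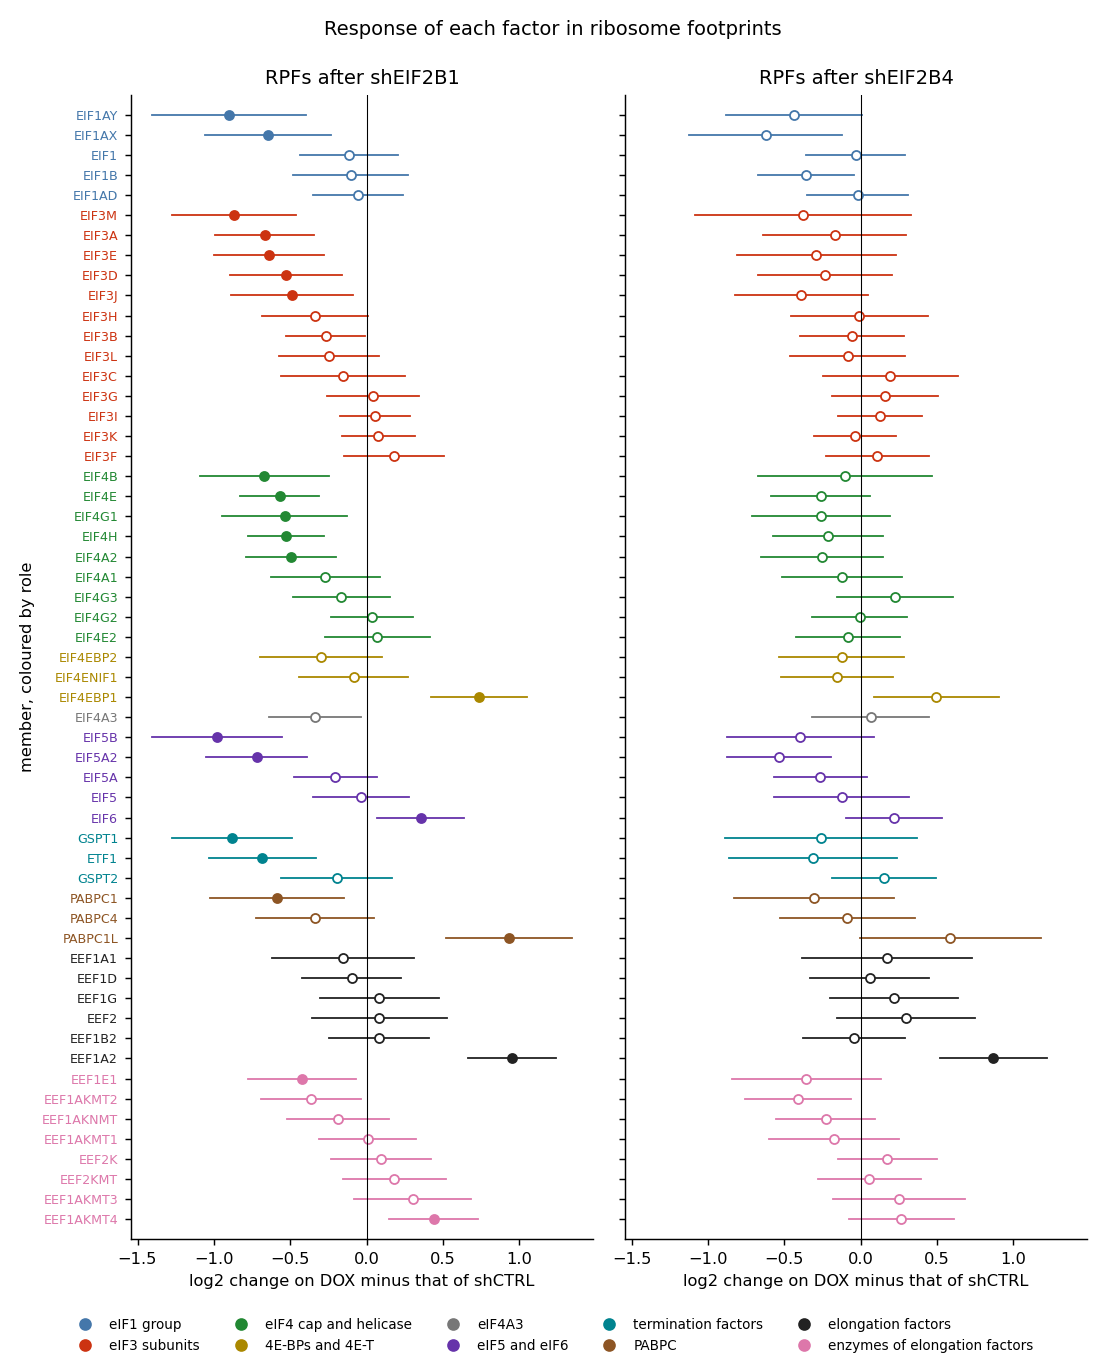
Response of each factor in RPFs (x axis, log2 change on DOX minus that of shCTRL) to shEIF2B1 on the left and shEIF2B4 on the right, with 1 row per gene coloured by role. Points are limma estimates, bars are 95% confidence intervals and filled points passed an adjusted p under 0.1 (23 on the left, 1 on the right): filled points on the left lie mostly below 0 among eIF3, eIF4, eIF5 and termination factors, while 5 of the 6 elongation factors are open and near 0. Before shCTRL was subtracted, those 5 were called lower within shEIF2B1 cells.

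EIF5B, the GTPase that joins the ribosomal subunits, had the lowest response. Its RPF values (log2) in replicates 1 to 4 of shEIF2B1 were 6.37, 7.46, 6.78 and 7.83 without DOX and 5.73, 5.998, 6.09 and 6.46 with DOX, while shCTRL read 5.71, 6.43, 6.50 and 7.06 without and 6.09, 6.50, 5.88 and 6.99 with DOX. Every shEIF2B1 replicate was lower with DOX, though its highest +DOX library exceeded its lowest -DOX library, and the shCTRL groups overlapped almost fully. The response of EIF5B was -0.98 ± 0.20 (SE, log2, 0.507-fold, adjusted p = 0.00399, limma). In the same group EIF5A2, the second eIF5A isoform, responded by -0.72 ± 0.16, and the anti-association factor EIF6 had a called response of 0.35 ± 0.14 (adjusted p = 0.0768). EIF6 itself changed by 0.08 in shEIF2B1 cells (adjusted p = 0.561) and by -0.28 in shCTRL (adjusted p = 0.13), and it was called in 3 of 11 alternative fits. EIF5 and EIF5A were not called, at -0.03 ± 0.15 and -0.20 ± 0.13.

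Among eIF3 subunits, EIF3M, EIF3A, EIF3E, EIF3D and EIF3J fell, and the other 8 did not pass the test. RPF values of EIF3M in shEIF2B1 were 10.08, 11.40, 10.06 and 11.37 without DOX and 9.13, 10.30, 9.05 and 10.72 with DOX, against 9.03, 10.37, 9.51 and 10.76 and then 9.56, 9.83, 9.27 and 10.76 in shCTRL. The replicates spread widely, so the groups overlapped, but each replicate of shEIF2B1 was lower with DOX than without, and the response was -0.87 ± 0.19 (SE, log2, adjusted p = 0.00596), counted on a coding sequence of 726 nt where the principal one has 1122 nt. EIF3A, the scaffold subunit, read 9.15, 9.91, 9.29 and 10.08 in shEIF2B1 without DOX and 8.66, 9.09, 9.14 and 9.25 with DOX, and 8.38, 9.16, 9.04 and 9.60 in shCTRL without DOX and 8.84, 9.19, 8.94 and 9.59 with DOX. Its shEIF2B1 groups shared a narrow overlap, and its response was -0.67 ± 0.16 (adjusted p = 0.00759). The responses of EIF3E, EIF3D and EIF3J were -0.64, -0.53 and -0.49, the last in 3 of 4 replicates. The 8 subunits not called lay between -0.34 (EIF3H) and 0.18 (EIF3F), and reads of EIF3C may be split with its near-identical copy EIF3CL, so its value of -0.15 is uncertain.

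In the eIF4 group, EIF4B, EIF4E, EIF4G1, EIF4H and EIF4A2 had lower responses, of -0.67, -0.57, -0.54, -0.53 and -0.50 on the log2 scale. For EIF4A2 the RPF change within shEIF2B1 cells was -0.03 (adjusted p = 0.854), so its response was the rise of 0.47 in shCTRL subtracted. EIF4E, the cap-binding protein, had RPF values of 10.08, 10.46, 10.20 and 10.58 in shEIF2B1 without DOX and of 9.21, 9.76, 9.26 and 9.98 with DOX, and in shCTRL of 9.69, 10.20, 10.11 and 10.35 without and 9.55, 9.94, 9.88 and 10.16 with DOX. The shEIF2B1 groups did not overlap, while the shCTRL groups did, and the response was -0.57 ± 0.12 (SE, log2, adjusted p = 0.00506). Over 3 genes that restrain eIF4E, EIF4EBP1 (4E-BP1) moved the other way, with RPF values in shEIF2B1 of 9.53, 8.92, 9.61 and 8.85 without DOX and of 10.07, 9.72, 10.01 and 9.79 with DOX. Those groups did not overlap, and shCTRL read 9.98, 9.51, 9.56 and 9.09 and then 9.60, 9.43, 9.74 and 9.14. The response of EIF4EBP1 was 0.73 ± 0.15 (SE, log2, 1.66-fold, adjusted p = 0.00372), whereas EIF4EBP2 and EIF4ENIF1 (4E-T) read -0.30 ± 0.19 and -0.08 ± 0.17 and were not called. EIF4A1, the main eIF4A helicase, and the scaffolds EIF4G2 and EIF4G3 were not called either, at -0.27, 0.04 and -0.17.

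Of the release factors, GSPT1 and ETF1 fell and GSPT2 was not called. GSPT1 (eRF3a) read 8.31, 9.17, 8.47 and 9.22 in shEIF2B1 without DOX and 7.61, 7.96, 7.89 and 8.30 with DOX, and 7.69, 8.47, 8.18 and 8.87 in shCTRL without DOX and 8.26, 8.03, 8.06 and 8.99 with DOX. The shEIF2B1 groups did not overlap, the shCTRL groups did, and the response was -0.88 ± 0.19 (SE, log2, adjusted p = 0.0046). ETF1 (eRF1) responded by -0.68 ± 0.17 (adjusted p = 0.00962), and the paralog GSPT2 was at -0.20 ± 0.17. In the eIF1 group EIF1AX (eIF1A, which takes part in scanning for the start codon) fell by 0.65 ± 0.20, and EIF1AY by 0.90, although reads of these near-identical genes may be exchanged. EIF1, the guard against non-AUG starts, was at -0.11 ± 0.16.

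The poly(A)-binding proteins were split. PABPC1, the main cytoplasmic form, had a response of -0.59 ± 0.21 (SE, log2, adjusted p = 0.0595), counted on a deposited transcript with a coding sequence of 354 nt where the principal one has 1908 nt. PABPC4 read -0.34 ± 0.19 and was not called. PABPC1L, a form known from oocytes, had RPF values of 4.42, 4.34, 4.96 and 4.28 in shEIF2B1 without DOX and of 5.68, 4.69, 5.59 and 4.69 with DOX, and of 4.50, 4.52, 5.01 and 4.63 and then 4.39, 4.24, 4.74 and 4.21 in shCTRL. It was higher with DOX in every shEIF2B1 replicate, with overlapping groups, and lower in every shCTRL replicate. Its response was 0.93 ± 0.20 (adjusted p = 0.00452).

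Of the elongation factors EEF1A2 had a higher response and the other 5 were not called. Within shEIF2B1 cells those 5 were all called lower with DOX, and 4 were called lower within shCTRL, which the response subtracts. EEF1A2 read 9.09, 8.93, 8.86 and 8.28 in RPFs of shEIF2B1 without DOX and 10.43, 10.14, 10.53 and 9.43 with DOX, and 9.64, 9.38, 9.51 and 8.90 in shCTRL without DOX and 9.90, 9.73, 9.89 and 9.47 with DOX. The knockdown groups did not overlap, and every replicate of shCTRL was higher with DOX as well, by a smaller step. The response was 0.95 ± 0.14 (SE, log2, 1.93-fold, adjusted p = 0.000213). Responses of EEF1A1, EEF1B2, EEF1D, EEF1G and EEF2 were -0.15, 0.08, -0.10, 0.08 and 0.08, with SEs from 0.16 to 0.22, and their 95% intervals reached down to -0.62 (EEF1A1) and up to 0.52 (EEF2), so changes of that size are not excluded. Reads of EEF1A1 may be shared with its many processed pseudogenes. Among the genes grouped with elongation factors, the methyltransferase EEF1AKMT4 had a called response of 0.44 ± 0.14, with 0.22 within shEIF2B1 cells (adjusted p = 0.122) and -0.22 in shCTRL, and EEF1E1, a scaffold protein of the tRNA synthetase complex, fell by 0.42 ± 0.17, while EEF2K, the kinase that inactivates eEF2, was at 0.09 ± 0.16.

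After depletion of eIF2Bδ, EEF1A2 was the 1 factor of 56 called in RPFs, where 2.75% of all genes were called. Its RPF values in shEIF2B4 were 9.28, 8.76, 8.58 and 8.14 without DOX and 10.34, 10.21, 9.86 and 9.38 with DOX, groups that did not overlap. The response of 0.87 ± 0.17 (SE, log2, adjusted p = 0.0111) stood beside 0.95 after shEIF2B1. Without replicate 2 or without replicate 4 no factor was called, beside 0.691% and 0.386% of all genes. Without replicate 1 of both shEIF2B4 and shCTRL, 7 of 56 were, beside 14.5% of all genes: EEF1A2, EIF4EBP1 and PABPC1L higher, and EIF1AX, EIF1AY, EIF5A2 and EIF3J lower. Which of the omitted libraries this shift came from was not tested. In the full set the largest responses below 0 were -0.62 ± 0.24 for EIF1AX, -0.54 ± 0.16 for EIF5A2 and -0.44 for EIF1AY, and the response was 0.59 ± 0.28 for PABPC1L and 0.50 ± 0.20 for EIF4EBP1, none of them called. The 18 factors lowered after shEIF2B1 had shEIF2B4 responses from -0.62 (EIF1AX) to -0.10 (EIF4B). Both knockdowns are measured against the same shCTRL libraries, so these values are given side by side and are not independent.

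Tested directly, no factor differed between the knockdowns in RPFs, total RNA or translation efficiency by limma at the threshold. The shares of all genes called were 0.00897%, 0.1% and 0%. At an unadjusted p under 0.05 were 8 of 56, 7 of 57 and 5 of 54 factors. Over all genes these counts were 713 of 11145, 1528 of 11947 and 665 of 10836. For EIF5B the RPF response to shEIF2B1 lay below that to shEIF2B4 by 0.58 ± 0.23 (SE, log2, 95% interval -1.05 to -0.12), and for GSPT1 by 0.62 ± 0.28 (-1.19 to -0.05), with an adjusted p of 0.746 for each. For EEF1A2 the difference was 0.08 ± 0.16 (-0.26 to 0.42). Without replicate 1 these differences were -0.53 for EIF5B, -0.45 for GSPT1 and 0.02 for EEF1A2, and limma called 0 factors in RPFs, with 8 at an unadjusted p under 0.05. In total RNA the difference closest to the threshold was that of GSPT1, at -0.43 ± 0.11 (adjusted p = 0.178).

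Total RNA moved for few of these genes. After shEIF2B1, 3 of 57 were called, where 3.47% of all genes were: EEF1A2 and EIF4EBP1 rose by 0.98 ± 0.17 and 0.48 ± 0.12 (SE, log2), and the helicase EIF4A2 had a response of -0.43 ± 0.13, its change being -0.04 within shEIF2B1 cells (adjusted p = 0.808) and 0.39 in shCTRL. Total RNA of EEF1A2 was 6.78, 6.81, 6.75 and 6.42 in shEIF2B1 without DOX and 8.13, 8.85, 8.63 and 7.99 with DOX, and 7.22, 7.14, 7.25 and 6.71 and then 7.56, 7.99, 8.33 and 7.36 in shCTRL. Neither pair of groups overlapped, and the step was wider in the knockdown line (adjusted p = 0.00248). Without replicate 1 or without replicate 4, EEF1A2 alone of the factors was called, beside 0.929% of all genes in each fit. After shEIF2B4, 2 of 57 were called, where 5.4% of all genes were, namely EEF1A2 at 0.61 ± 0.18 and EIF4E3, a cap-binding paralog, at 0.74 ± 0.15 (adjusted p = 0.00924). EIF4E3 read 5.49, 5.27, 5.19 and 5.48 in shEIF2B4 without DOX and 6.18, 6.25, 6.27 and 6.24 with DOX, so its groups did not overlap. Without replicate 2 or replicate 4 the count was 1, beside 2.03% and 1.82% of all genes.

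Translation efficiency (TE), the log2 RPF value minus the log2 total RNA value of the same lysate, was lower for factors of several groups. After shEIF2B1, 11 of 54 factors were called, 1 higher and 10 lower, where 7.1% of all genes were, 2.97% higher and 4.13% lower. Called lower were 3 of 13 eIF3 subunits, 2 of 4 genes of the eIF1 group and 2 of 5 of the eIF5 and eIF6 group. So were 1 of 9 eIF4 factors, 1 of 2 termination factors and 1 of 3 poly(A)-binding proteins. TE of PABPC1 fell by 0.88 ± 0.28 (SE, log2), of EIF3M by 0.84 ± 0.19, of EIF5B by 0.69 ± 0.21, of EIF3A by 0.66 ± 0.15, of GSPT1 by 0.65 ± 0.18, of EIF1AX and EIF5A2 by 0.60, of EIF3D by 0.56, of EIF1 by 0.46 and of EIF4H by 0.45, while that of EEF1AKMT4 rose by 0.52 ± 0.14. RPFs of PABPC1 and EIF3M were counted on coding sequences of 354 and 726 nt, where the principal ones have 1908 and 1122 nt. Total RNA of EIF3M and EIF3A had responses of -0.03 ± 0.11 and -0.01 ± 0.13, whereas EIF5B and GSPT1 had total RNA responses of -0.29 ± 0.13 and -0.23 ± 0.12, which were not called. EEF1A2 had a TE response of -0.03 ± 0.20, its RPF and RNA responses being 0.95 and 0.98. These TE counts depended on single replicates, as did those of all genes. No factor was called without replicate 1 or without replicate 4, where 0% and 0.185% of all genes were. Without replicate 3, 1 factor (EIF5B) was called, beside 0.397% of all genes, and without replicate 2, 13 were, beside 12.6%. After shEIF2B4 limma called 0 of 54 factors in TE and 0.0923% of all genes. At an unadjusted p under 0.05 were 5 factors, beside 1848 of all 10836 genes. Without replicate 1, 4 of 54 were called, PABPC1L higher at 0.62 and EEF1E1, EIF1AX and EIF4EBP2 lower at -0.69, -0.64 and -0.57, beside 13.1% of all genes.

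**Figure D2:**
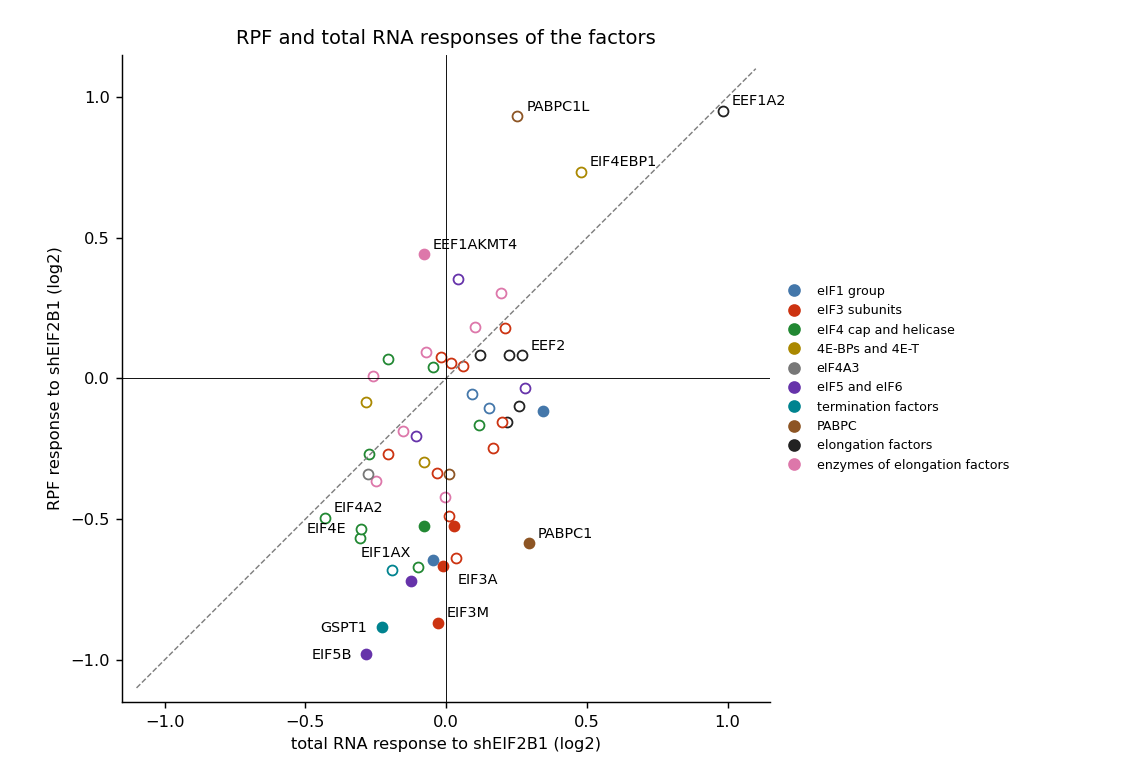
RPF response to shEIF2B1 (y axis, log2) against the total RNA response (x axis, log2) for the 54 factors in both tables, coloured by role, with filled points for a called TE response. EEF1A2 sits near the dashed line of equal responses at 0.98 and 0.95, whereas EIF3M and EIF3A sit near 0 on the x axis and at -0.87 and -0.67 on the y axis.

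The responses ran alongside the third-base composition of the coding sequence. Across the 56 factors the RPF response to shEIF2B1 had a Pearson correlation of 0.71 with GC3, and across 11128 genes one of 0.61. For shEIF2B4 the values were 0.72 and 0.52, and without replicate 1 they were 0.72 and 0.57. The change on DOX in shCTRL, which both responses subtract, had correlations of -0.32 over the factors and -0.26 over all genes. These are descriptions across genes that share the same libraries. The median GC3 was 39.4% in the 18 lowered factors, 75.1% in the 5 raised and 61.6% in the 33 not called, against 59.6% over all genes. Of 26 factors with a GC3 under 50%, 14 were called, all lower, where 36.5% of all such genes were called, and of 30 factors at 50% or more 5 rose and 4 fell, where 22.3% were. In the windows printed above, the last base of the codon was G or C in 5 of 20 codons of GSPT1, 6 of EIF5B, 8 of EIF3M and 11 of EEF1A1, and in 15 of PABPC1L and 19 of EEF1A2.

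When a linear trend of the values on GC3 was removed from each library, an alternative added after the data were seen, 10 of 56 factors were called after shEIF2B1, beside 10% of all genes. EIF5B, GSPT1, EIF3M, EIF3D, EIF4H and PABPC1 stayed lower and EEF1A2, EIF4EBP1 and PABPC1L higher, and EIF3B passed in addition at -0.37. The GC3 values used for PABPC1 (71.2%) and EIF3M (36.8%) are those of their shorter deposited coding sequences. EEF1A2 then had a response of 0.58, PABPC1L of 0.74, EIF5B of -0.62 and GSPT1 of -0.59. EIF3A and EIF4E were no longer called, at -0.39 and -0.28. In TE, 0 of the 54 factors and 0.277% of all genes were called by limma after the trend was removed. At an unadjusted p under 0.05 were 13 factors, beside 1390 of all 10836 genes.

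The shEIF2B1 responses also contained a difference between the uninduced lines, which was looked at after the data were seen. Without DOX, all 18 factors that were lower in the response had higher RPF values in shEIF2B1 than in shCTRL (median difference 0.53 log2), and 54.1% of all genes differed between those groups. With DOX, the median difference of the 18 was -0.12 and 3 were called lower, GSPT1 at -0.40 ± 0.11 (SE, log2), EIF4H at -0.37 ± 0.10 and EIF4E at -0.33 ± 0.11, where 10.5% of all genes were called. EIF5B differed by 0.68 ± 0.11 without DOX and by -0.30 ± 0.13 with DOX, and EIF3M by 0.81 ± 0.09 and -0.06 ± 0.12. Of the 5 raised factors, PABPC1L, EIF4EBP1 and EEF1A2 were higher in shEIF2B1 than in shCTRL with DOX, by 0.77, 0.42 and 0.39, while without DOX EEF1A2 and EIF4EBP1 were lower, by -0.57 and -0.31. In total RNA without DOX, limma called 0 of the 17 lowered factors that were listed, where 1.4% of all genes were called. At an unadjusted p under 0.05 was 1 of these 17, beside 1569 of all 11947 genes. In RPFs, EIF5 and EIF4G2 were higher in shEIF2B1 both with DOX, by 0.46 and 0.33, and without it, by 0.49 and 0.29, without a called response. These differences are components of the responses themselves, and the part of the uninduced lines in the result was not tested further.

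In shCTRL cells, DOX together with the control shRNA it induces, which cannot be told apart here, moved RPFs of elongation factors. Of 56 factors 7 were called, 2 higher and 5 lower, where 9.85% of all genes were, 5.23% higher and 4.62% lower. By group, 5 of the 6 elongation factors were called with a median change of -0.46 (log2), against 2 of the other 50 factors: EEF2 changed by -0.49 ± 0.16, EEF1G by -0.47 ± 0.15, EEF1B2 by -0.45 ± 0.11, EEF1D by -0.37 ± 0.12 and EEF1A2 by 0.39 ± 0.09 (SE, log2), and outside that group EIF3F fell by 0.42 ± 0.11 and EIF4A2 rose by 0.47 ± 0.09. EEF1A1 was at -0.46 ± 0.19 and was not called (adjusted p = 0.156). EIF3F and EEF1D were counted on short deposited transcripts, with coding sequences of 300 nt and 297 nt where the principal ones have 1071 nt and 1941 nt. RPF values of EEF2 in shCTRL were 12.76, 12.74, 12.99 and 12.95 without DOX and 12.98, 11.87, 12.20 and 12.42 with DOX, so replicate 1 was higher and replicates 2 to 4 were lower with DOX. EEF1B2 read 12.76, 12.93, 12.81 and 12.95 without DOX and 12.54, 12.15, 12.32 and 12.64 with DOX, without overlap. EIF3F read 11.56, 11.38, 11.45 and 11.52 and then 11.48, 10.66, 10.92 and 11.19, with replicate 1 again the smallest step. Without replicate 1, 27 of 56 factors were called, beside 31.6% of all genes, and without replicate 2, 3 or 4 none was, while 3 or 4 of all genes were.

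The 5 factors with lower RPFs in shCTRL were all on a list of TOP mRNAs. The list of 10 genes (EEF1A1, EEF1B2, EEF1D, EEF1G, EEF2, EIF3E, EIF3F, EIF3H, EIF4B and PABPC1) was taken from general knowledge of TOP mRNAs, with earlier results of these data known. In shCTRL RPFs 5 of its 10 genes fell and 0 rose, with a median change of -0.39 (log2), against a median of -0.07 over the 46 other factors, of which 2 rose and 0 fell. The list and the start-site rule above do not coincide. EIF4A2, which rose, has a tract at its start, while EEF1G, which fell, has none. EIF3D, EIF3K and EIF3M, with a tract but outside the list, were not called. Cytosolic ribosomal proteins had a median of -0.40, with 45 of 82 lower. Total RNA of the TOP-listed factors had a median change of 0.12, and 0 of 10 were called by limma, with 1 at an unadjusted p under 0.05. In TE of shCTRL limma called 0 of the 54 factors and 0.388% of all genes. At an unadjusted p under 0.05 were 18 factors, beside 1630 of all 10836 genes. The largest TE changes were -0.85 ± 0.20 for EEF2 (adjusted p = 0.105) and -0.68 ± 0.18 for EEF1A1. Without replicate 1, 14 of 54 were called in TE, beside 5.73% of all genes. In total RNA of shCTRL 5 of 57 factors were called, where 4.44% of all genes were, with EEF1A2 and EIF4A2 higher by 0.73 and 0.39 and EIF5AL1, EIF1AD and EEF1E1 lower by -0.55, -0.35 and -0.33. Reads of EIF5AL1 may belong to its parent gene EIF5A. That count was 18 without replicate 1, 3 without replicate 2, 0 without replicate 3 and 2 without replicate 4. Of all genes, 20.5%, 1.39%, 0.0251% and 0.1% were called in these fits.

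Within the knockdown lines, before the correction for shCTRL, most factors called in RPFs were lower with DOX, and in shEIF2B4 the RPF counts depended on replicate 1. In shEIF2B1 cells 39 of 56 factors changed in RPFs, 4 higher and 35 lower, where 49.4% of all genes did, and in shEIF2B4 cells 28 of 56, 3 higher and 25 lower, where 23.8% did. All 10 TOP-listed genes were lower in shEIF2B1 RPFs, with a median of -0.49, and 4 of 10 in shEIF2B4, with a median of -0.31. Of the elongation factors, 6 of 6 were called in shEIF2B1 RPFs, 5 lower and EEF1A2 higher, and 2 of 6 in shEIF2B4, EEF1B2 lower at -0.49 and EEF1A2 higher at 1.26. EEF1A1 fell by 0.62 in shEIF2B1 (adjusted p = 5.33e-05), and its values of -0.29 in shEIF2B4 (adjusted p = 0.216) and -0.46 in shCTRL were not called. Without replicate 1, 42 of 56 factors were called in shEIF2B4 RPFs, beside 40.4% of all genes, among them 10 of the 10 TOP-listed genes, all lower, and 6 of 6 elongation factors, 5 lower, with EEF1A1 at -0.49. In total RNA, 34.4% of all genes changed in each knockdown line, and 5 of the 6 elongation factors were higher in shEIF2B1 and 3 in shEIF2B4, EEF2 by 0.63 and 0.35. Without replicate 1 the counts in total RNA were 2 and 3, beside 24.9% and 34.6% of all genes. In TE, 6 of 6 elongation factors fell in shEIF2B1, where 17.1% of all genes changed, and 4 of 6 in shEIF2B4, where 6.21% did. Without replicate 1 the counts were again 6 and 4, beside 9.69% and 19.7% of all genes. TE of EEF2 changed by -1.04 and -0.55 and that of EEF1A1 by -1.05 and -0.65 in shEIF2B1 and shEIF2B4. These own changes include the effect of doxycycline, which the responses above subtract as measured in shCTRL.

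**Figure D3:**
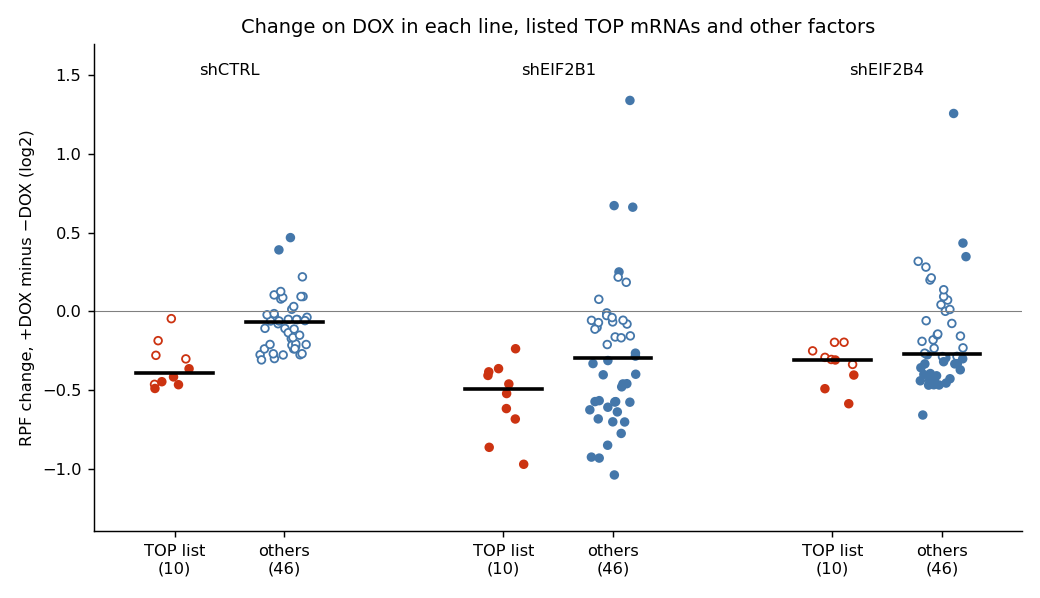
RPF change from -DOX to +DOX within each line (y axis, log2) for the 10 TOP-listed factors (red) and the 46 other factors (blue), with black bars at the medians and filled points where called. In shCTRL the TOP-listed factors centre on -0.39 and the others on -0.07, and in shEIF2B1 all 10 TOP-listed factors are filled and below 0.

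Among 33 partners and regulators of these factors, listed from general knowledge, 32 were measured in RPFs. After shEIF2B1 17 of the 32 were called, 5 higher and 12 lower, the shRNA target EIF2B1 among the lower, where 27.3% of all genes were called, 12% higher and 15.3% lower. The lowered ones included EIF2S1 (eIF2α) at -0.88 ± 0.17 (SE, log2), the reinitiation pair DENR and MCTS1 at -0.83 and -0.66, PAIP2, which restrains poly(A)-binding protein, at -0.75, ABCF1 at -0.71, and PDCD4, an inhibitor of eIF4A, at -0.59. Those called higher were the mTORC1 inhibitors SESN2 and DDIT4 at 1.19 and 0.94, and MTOR, RPS6KB1 and RPS6KB2 at 0.35, 0.37 and 0.59. In shCTRL itself 3 of the 32 were called on DOX, where 9.85% of all genes were. PAIP2 rose by 0.45, and RPS6KB1 and DOHH changed by -0.42 and -0.62. The responses of these genes include those shCTRL changes, subtracted. After shEIF2B4 3 of 32 were called, where 2.75% of all genes were, SESN2 and DDIT4 higher at 1.46 and 1.18 and PAIP2 lower at -0.79.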

How the data were processed

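RPFs and total cytoplasmic RNA were measured in 24 lysates. Per the labels and methods, reads were trimmed with cutadapt 1.18, total RNA was quantified with Bowtie2 and RSEM on GENCODE v38 transcripts, and RPFs were counted on the coding sequence of the most expressed transcript per gene. Deposited values are regularized log2 values which the authors made with DESeq2, separately for each table, with shrinkage that can understate changes of low genes. Depth is unknown.

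Responses were fitted on all genes with limma 3.58.1 in R 4.3.3 (lmFit on replicate, shRNA, DOX and shRNA by DOX, then eBayes with trend), 1 knockdown with shCTRL at a time (16 libraries), two-sided, after tests on simulated data. The knockdowns were compared over 24 libraries and shCTRL over its 8. Replicates were separate weeks, and 52 of 60 same-numbered RPF pairs had correlated deviations (r over 0.1), 37 of 60 in total RNA and 55 of 60 in TE, so the number was kept as a block. Members and lists were chosen with earlier results of these data known. Named genes are the 3 largest called rises and falls per response that moved one way in 4 of 4 replicates, a panel by role, and further called members. Coding sequences came from GENCODE v29 (GRCh38), which held 96.9% of the RPF-table genes. No sample was left out. Alternatives changed the block, trend, low-value filter, centring, samples, threshold, replicates and GC3.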

Additional observations from a re-analysis of the deposited data

Results flagged for a closer look

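In 84 groups of 4 libraries tested (RPFs of 12 factors and total RNA of EEF1A2 and EIF4EBP1), 3 had a library set apart from the others by more than Dixon's 95% critical value, and chance flags about 1 group in 20. EIF3A read 7.81 in RPFs of shEIF2B4 -DOX replicate 1, below 9.29 to 9.40 in the other replicates of that group. GSPT1 read 6.96 in the same library, below 8.55 to 8.81. EEF1A2 total RNA read 6.42 in shEIF2B1 -DOX replicate 4, below 6.75 to 6.81.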

How the results depend on the processing

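Of the results recomputed under each alternative, 3822 stayed on their side of the threshold with the same direction, 160 passed it, 205 fell short of it and 12 reversed. Without the replicate block, no factor was called in RPFs after shEIF2B1 (0 against 23), RPFs after shEIF2B4 (0), TE (0) or total RNA after shEIF2B1 (0), or in shCTRL RPFs and total RNA (0 each), and 1 was in total RNA after shEIF2B4. Of all genes, 0.449% and 0.323% were then called in RPFs after shEIF2B1 and shEIF2B4, and 0% in TE. In total RNA 1.6% and 2.92% were, and in shCTRL 0% in RPFs and 0.0753% in total RNA. Without the mean-variance trend, shCTRL RPFs gave 4, beside 8.35% of all genes. With the lowest 25% of genes left out, TE after shEIF2B1 gave 6 and total RNA after shEIF2B4 gave 1. Of the genes kept, 6.14% and 6.24% were called there. Centring gave 1 in TE of shCTRL, beside 0.544% of all genes. A fit of all 24 libraries gave 0 in TE after shEIF2B1, beside 0.406%. At an adjusted p under 0.05, the counts were 2 in shCTRL RPFs, 3 in TE after shEIF2B1, 3 in shCTRL total RNA and 1 in total RNA after shEIF2B4. With the GC3 trend removed, they were 10 in RPFs, 0 in TE and 5 in total RNA after shEIF2B1, and 3 in total RNA after shEIF2B4. The shares of all genes were 10%, 0.277%, 5.19% and 5%. Without the shCTRL correction, the counts were 39 in RPFs, 24 in TE and 32 in total RNA for shEIF2B1, and 28, 8 and 26 for shEIF2B4. The shares of all genes were 49.4%, 17.1% and 34.4%, and 23.8%, 6.21% and 34.4%. The cause of these shifts was not tested. The 12 reversals all came without the shCTRL correction: in RPFs of shEIF2B1 EEF1B2 (-0.36), EEF1G (-0.39), EEF2 (-0.41), EIF3F (-0.24) and EIF3G (-0.27), in RPFs of shEIF2B4 EIF3F (-0.31), in TE of shEIF2B4 EEF1A1 (-0.65), EEF1G (-0.42) and EEF2 (-0.55), and in total RNA EEF2 (0.35, shEIF2B4) and EIF3J (-0.28 and -0.24). Leaving out each replicate gave 14 to 21 in RPFs and 0 to 13 in TE after shEIF2B1, 0 to 7 and 0 to 4 after shEIF2B4, 1 to 4 and 1 to 2 in total RNA of these, and 0 to 27, 0 to 14 and 0 to 18 in RPFs, TE and total RNA of shCTRL. The shares of all genes ranged likewise, from 13.7% to 24.4% in RPFs and 0% to 12.6% in TE after shEIF2B1. After shEIF2B4 they ranged from 0.386% to 14.5% and 0% to 13.1%, and in shCTRL RPFs from 0.0269% to 31.6%. The comparison of the knockdowns called 0 factors throughout. Without counts, depth limits cannot be given.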
